A study of Rattus norvegicus with 5 samples.

Results

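The isocaloric feeding control of a fetal alcohol study was compared with the control diet in rat hippocampus, on the 3 of 5 arrays that carry these labels. Of these, 2 arrays hold hippocampal RNA labelled as fed control diet and 1 RNA labelled as fed the isocaloric diet. The members were taken by the sample titles, Control or Isocaloric diet, and the descriptions name both diets. Whether the dams or the sampled animals received the diets is not said in the labels. The other 2 arrays, labelled fetal alcohol exposed, were used only to show whether a difference between the diets was also present with alcohol. All samples are labelled P5 and are total RNA, hybridised to 1 array each, in a single colour. An array carries 8799 probe sets, of which 8740 are not controls. The labels give no strain, sex, litter, pooling or composition of the diets, so the spread between the control diet arrays may in part be technical.

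In studies of alcohol before birth, an isocaloric diet usually replaces the calories that the alcohol diet takes from ethanol, so that effects of the feeding regime can be told from those of alcohol. It differs from an ordinary control diet in what the dams eat and often in how much. The hippocampus of a rat soon after birth is still forming its synapses, and newborn granule neurons are being added to the dentate gyrus. Its gene expression is therefore that of a growing tissue with few myelinated fibres.

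Each value below is an intensity, the deposited linear signal of a probe set, and each difference is isocaloric minus control diet in log2(intensity + 10.6), given with the standard error (SE) from limma. With 1 isocaloric array, the SE assumes that this array would vary as the control diet and fetal alcohol arrays do. A probe set was called higher or lower when the isocaloric value lay beyond both control diet values and at least 1.5-fold from their mean. This call is a description of 3 arrays and not a test. With no minimum size, the isocaloric value lay beyond both control diet values at 3973 of 5244 tested probe sets (75.8%), 2009 above and 1964 below. Among 3 arrays that vary alike, any 1 of them also lies beyond the other 2 at the majority of probe sets, so most of this share follows from the rule. By the size rule 211 were higher (4.02%) and 440 lower (8.39%), together 12.4%. The uneven split was smaller after scaling the arrays to equal medians, with 292 higher and 370 lower, and the count of higher probe sets was 334 without control diet array 2. At a 2-fold rule 23 were higher and 96 lower, and at 3-fold 3 and 10. The limma test put 0 probe sets past an adjusted p of 0.05, with the smallest at 0.270, while the unadjusted p was under 0.05 at 357, of which 72 were higher and 285 lower, where 262.2 are expected if none differed. In fits without fetal alcohol array 1 or without array 2, and with the control diet and isocaloric arrays alone, some probe sets passed. The spread in these fits came from the control diet pair alone.

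The control diet arrays differed from each other by at least 1.5-fold at 399 probe sets (7.61%), with an SD of log2 differences of 0.341. The isocaloric array differed that much from control diet array 1 at 833 (15.9%) and from array 2 at 801 (15.3%), with SDs of 0.441 and 0.424. The fetal alcohol arrays differed from each other at 1074 (20.5%), with an SD of 0.509. Arrays that share a label can thus differ by more than the isocaloric array did from either control diet array. With the probe sets divided into 4 equal classes of intensity, 7.55% to 8.92% were lower and 3.89% to 4.20% higher in each class. Just inside the rule, Polr2i measured 135 and 162 with control diet and 227 with the isocaloric diet. Just outside it, Cacnb2 measured 37.5 and 31.1 against 56.5. On the lower side these were Kcnq3 (99.5 and 91.2 against 59.9) and S100b (321 and 341 against 217). All 9 probe sets of the spiked bacterial and phage control RNAs were lower on the isocaloric array than on both control diet arrays, at 0.405 to 0.650 of the control diet mean. This was not particular to the isocaloric array. All of them except the BioB 5' probe set were also below both control diet arrays on both fetal alcohol arrays. The CreX 5' probe set, for example, measured 2941 and 3294 with control diet, 1262 with the isocaloric diet and 1507 and 2013 with fetal alcohol. For beta-actin, the 3' signal divided by the 5' signal gave 1.12 on the isocaloric array against 1.32 and 1.34, and for GAPDH 0.93 against 0.88 and 0.89. The fetal alcohol arrays had 1.18 and 1.26 for beta-actin and 0.98 and 0.88 for GAPDH. The part of these array properties in the differences was not tested.

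**Figure D1:**
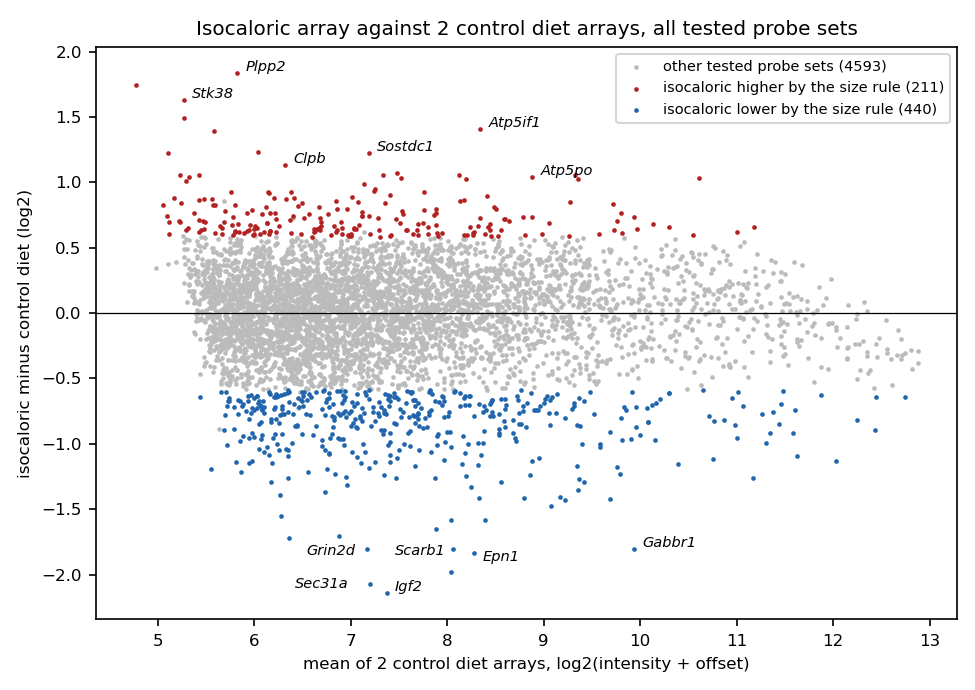
Difference between the isocaloric array and the mean of the control diet arrays (log2, vertical axis) against that mean (log2 of intensity plus offset, horizontal axis) for 5244 probe sets. Red points are the 211 called higher and blue points the 440 called lower, at all levels of intensity, and the genes with the largest gaps to the nearer control diet array are named.

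The 15 genes that stood farthest above both control diet arrays were led by Plpp2, Stk38 and Sostdc1, and held Psma2 and Psmc2 of the proteasome. Their differences ran from 0.88 to 1.84, and their limma adjusted p-values from 0.342 to 0.705. Atp5if1, the inhibitor protein that stops the ATP synthase from running backwards, measured 257 and 384 with control diet and 852 with the isocaloric diet, a difference of 1.41 ± 0.32. Its 3 other tested probe sets were also higher, by 1.22, 0.87 and 0.64. The fetal alcohol arrays, at 584 and 639, lay between the diets. Atp5po, a subunit of the stalk that holds the ATP synthase, measured 445 and 480 against 962, a difference of 1.04 ± 0.28, and a second probe set differed by 0.65. Here the fetal alcohol arrays, with 852 and 681, were also above both control diet arrays.

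The proteasome subunits in this group were Psma2, of the ring that forms the core particle, and Psmc2, an ATPase of the cap that unfolds substrates. Psma2 measured 186 and 152 against 365 (1.07 ± 0.29), with 0.66 and 0.20 at its other probe sets. Psmc2 measured 197 and 216 against 402 (0.93 ± 0.28), with 0.57 at the other. Nae1, a subunit of the enzyme that activates the ubiquitin-like protein Nedd8, had 55.7 and 65.9 against 124 (0.92 ± 0.31), with 0.41 at the other. For these 3 genes the fetal alcohol arrays, from 249 to 288, from 275 to 294 and from 72.7 to 107, lay above the control diet arrays and below the isocaloric one. Rps15 of the small ribosomal subunit gave 233 and 310 against 569 (1.05 ± 0.40), but 0.23 and -0.13 at its other probe sets.

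Some of the higher genes stood apart from alcohol as well as from control diet. Clpb, a mitochondrial protein disaggregase, measured 66.6 and 71.8 with control diet and 165 with the isocaloric diet (1.14 ± 0.27), while the fetal alcohol arrays had 80.4 and 81.1. Its other probe set, at 160 and 146 against 168, hardly differed (0.13). Hmox1, heme oxygenase 1, an inducible enzyme that breaks down heme, measured 117 and 145 against 268 (0.98 ± 0.34), with fetal alcohol values of 148 and 93.1. A second Hmox1 probe set gave 31.3 and 37.1 against 71.5 (0.88), so both put the isocaloric array alone on the high side. Lenep, a gene first described in lens epithelium, had 71.5 and 78.1 against 146 (0.88 ± 0.37), with 35.5 and 72.5 on the fetal alcohol arrays.

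For 2 genes of this group the fetal alcohol arrays lay on the opposite side. Sostdc1, a secreted BMP antagonist abundant in choroid plexus, measured 133 and 137 on control diet, 329 on the isocaloric diet (1.22 ± 0.33) and 42.2 and 71.8 with fetal alcohol. Gsta1, a glutathione transferase, measured 43.2 and 69.4, 144 (1.24 ± 0.35) and 8.50 and 4.77 in the same order. Its other probe sets gave 0.60 and 0.39 between the diets. The remaining genes were Plpp2, a lipid phosphate phosphatase, at 36.2 and 57.7 against 191 (1.84 ± 0.35), and Stk38, a kinase of the Hippo pathway family, at 20.5 and 37.4 against 109 (1.63 ± 0.41). The other probe set of Plpp2 gave -0.12 and that of Stk38 0.44. With fetal alcohol Stk38 had 63.9 and 121 and Plpp2 120 and 80.3, so that the control diet arrays were the low ones for both. Hnrnpa1, an RNA-binding protein of splicing, differed by 1.03 ± 0.31 (0.32 and 0.04 at other probe sets) and Clns1a, which helps assemble splicing particles, by 1.03 ± 0.31 (0.39 and 0.11). Their fetal alcohol values, 845 and 1258 for Hnrnpa1 and 283 and 239 for Clns1a, also lay above both control diet arrays, at 620 and 675 and at 200 and 150.

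The 15 genes farthest below both control diet arrays were led by Igf2, Sec31a and Gabbr1. Their differences ran from -2.14 to -1.23, with limma adjusted p-values from 0.270 to 0.632. Gabbr1, the ligand-binding subunit of the GABA-B receptor, measured 997 and 944 with control diet and 270 with the isocaloric diet, a difference of -1.81 ± 0.29. Further Gabbr1 probe sets gave -1.58 and -1.14, and the last one, a dim one at 52.3 and 66.7 against 55.1, gave -0.09. The fetal alcohol arrays, with 551 and 725, lay between the diets. Rab3a, a GTPase on synaptic vesicles, measured 820 and 804 against 296 (-1.42 ± 0.27), and 481 and 543 with fetal alcohol. Cplx1, complexin 1, which clamps and then promotes vesicle fusion, measured 481 and 391 against 156 (-1.42 ± 0.29), and 284 and 292 with fetal alcohol. For these 3 genes the isocaloric array was the lowest of the 5 arrays and the control diet arrays were the highest.

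Grin2d, an NMDA receptor subunit of the early brain and of interneurons, measured 146 and 121 against 30.7 (-1.80 ± 0.28), with 84.2 and 82.7 on the fetal alcohol arrays. Its second probe set, at 68.6 and 92.2 against 67.2, differed by -0.21 only. Epn1, epsin 1, which bends membranes during endocytosis, measured 332 and 270 against 76.4 (-1.83 ± 0.34). Scarb1, a receptor for high-density lipoprotein, gave 240 and 273 against 65.9 (-1.80 ± 0.33), but -0.53 and 0.10 at other probe sets. Ptprs, a receptor phosphatase of axons and synapses, gave 201 and 316 against 56.0 (-1.98 ± 0.41), with -0.30 and -0.59 at brighter probe sets. The direction was thus shared by the probe sets of Ptprs, and not by those of Scarb1.

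Tubb5, a beta-tubulin, measured 529 and 528 against 183 at 1 probe set (-1.48 ± 0.28) and 7569 and 6745 against 5875 at the other (-0.28). Neurod1, a transcription factor of granule neurons, measured 104 and 104 with control diet and 38.2 with the isocaloric diet (-1.23 ± 0.30), and a second probe set 241 and 251 against 126 (-0.91). The fetal alcohol arrays gave 53.2 and 72.9 at the first and 109 and 221 at the second, below control diet in each case. Adap1, a protein of dendrites that binds inositol phosphates, had -1.41 ± 0.29 and 0.09 at its other probe set. Ergic1, of transport from the endoplasmic reticulum, had -1.33 ± 0.33 and 0.19, and Cyb5a, cytochrome b5, -1.65 ± 0.58 and 0.47. For Adap1, Ergic1 and Cyb5a the probe sets of the gene pointed in opposite directions.

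Among the genes farthest below control diet, the control diet arrays stood above all other arrays at every named probe set except that of Cyb5a. Cyb5a measured 194 and 262 with control diet, 64.7 with the isocaloric diet and 93.8 and 318.5 with fetal alcohol. At the named probe sets of Igf2, Sec31a and Atn1 the fetal alcohol arrays lay near the isocaloric array. Igf2, insulin-like growth factor 2, measured 134 and 179 on control diet, 27.0 on the isocaloric diet and 23.1 and 14.7 with fetal alcohol, a difference between the diets of -2.14 ± 0.33. The other Igf2 probe sets gave -0.26, -0.11 and 0.07. Sec31a, of the coat of vesicles that leave the endoplasmic reticulum, measured 171 and 109, 24.4, and 28.7 and 27.4 (-2.07 ± 0.33), with -0.66 and -0.86 at its other probe sets. Atn1, atrophin 1, a transcriptional corepressor, measured 129 and 88.7, 25.5, and 21.2 and 27.9 (-1.71 ± 0.33), with -0.85 at its other probe set. The isocaloric and the alcohol comparison share the control diet arrays.

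**Figure D2:**
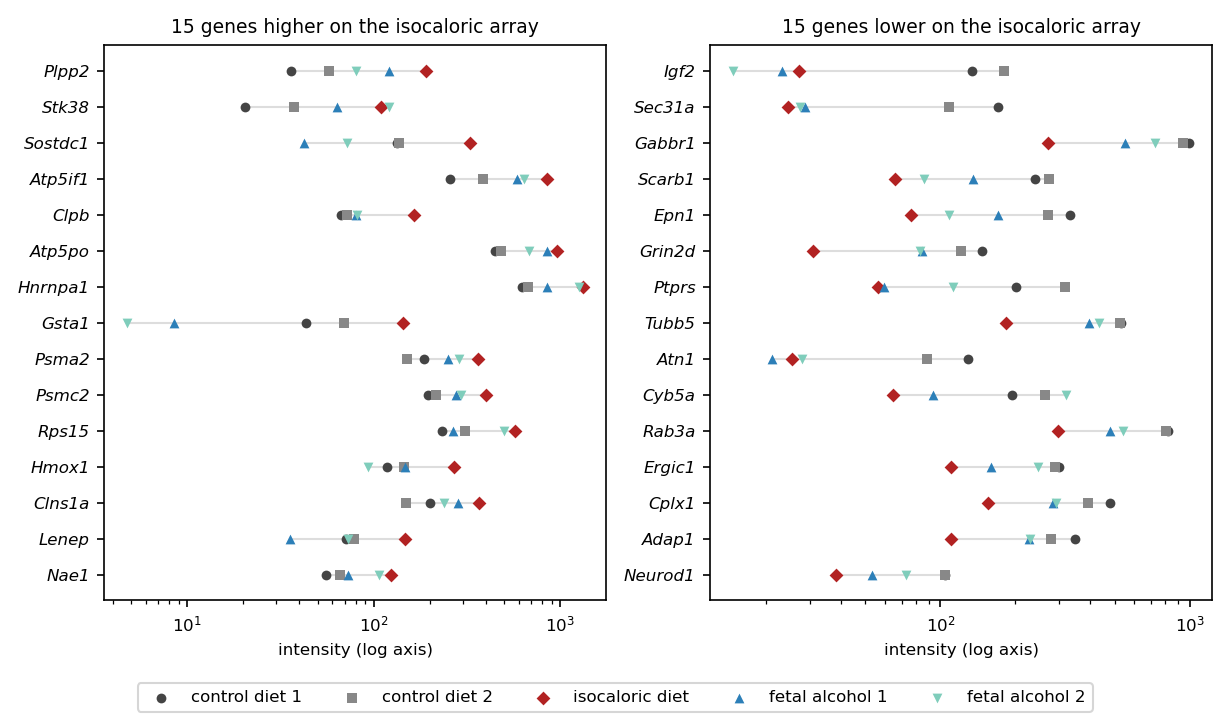
Intensity on each of the 5 arrays (log axis) for the 15 genes farthest above and the 15 farthest below both control diet arrays. The red diamond, the isocaloric array, lies beyond both grey control diet symbols by the way the genes were chosen, and the blue and green triangles, the fetal alcohol arrays, lie at the isocaloric level (Igf2, Sec31a, Atn1), between the diets (Gabbr1, Rab3a, Cplx1) or on the other side of control diet (Sostdc1, Gsta1).

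Agreement between probe sets of the same gene was limited. Of the 30 genes, 25 had at least 2 tested probe sets. In 18 of the 25 all tested probe sets lay on the same side of 0, and in 6 all passed the size rule. In 15 only the named probe set did. Over all 915 genes with at least 2 tested probe sets, 83 had at least 1 higher probe set and 10 of these had only higher ones, while 155 had at least 1 lower one and 25 had only lower ones. Probe sets of a gene share the RNA of the array and can share sequence, so they are not replicates.

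**Figure D3:**
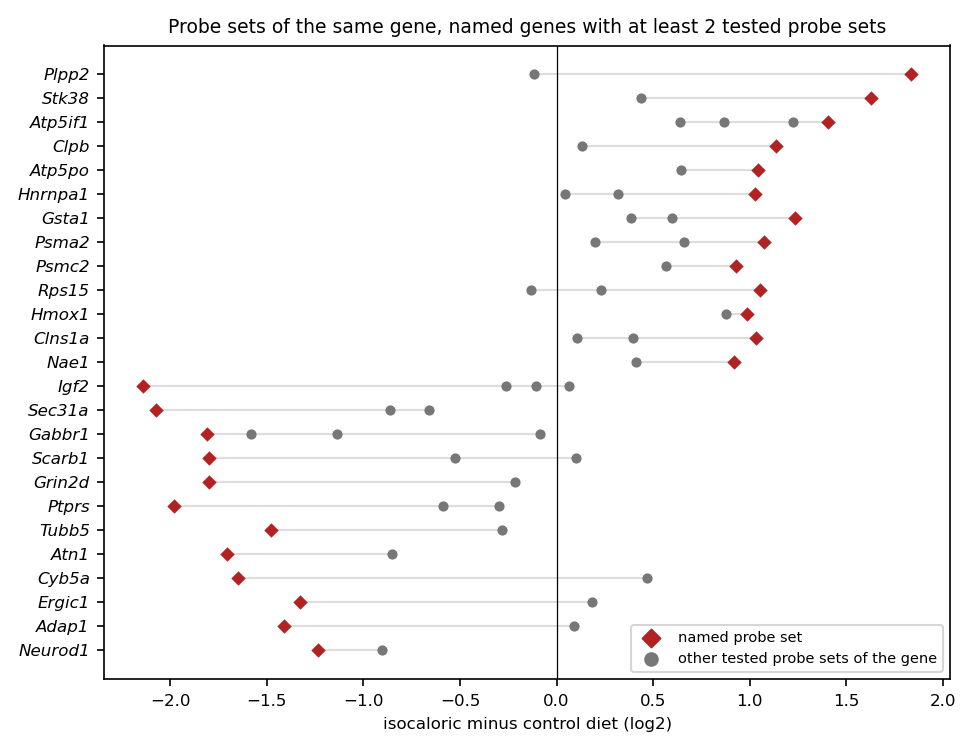
Difference between isocaloric and control diet (log2, horizontal axis) for every tested probe set of the 25 named genes that have at least 2. The named probe set (red diamond) is the most extreme by the way it was chosen; those of Atp5if1, Hmox1 and Neurod1 have companions (grey circles) nearby, and those of Plpp2, Igf2 and Cyb5a do not.

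Genes with concordant probe sets gave a list that depends less on 1 probe set. On the higher side, with the brighter mean at 100 or more, these were Celf1, Churc1, Stx12, Atp5po and Txnip. Celf1, an RNA-binding protein that controls splicing and mRNA decay, was higher by 0.69, 0.70 and 0.75 at its 3 probe sets, the brightest of which measured 451 and 337 against 642. The fetal alcohol arrays had 522 and 656 there, above the control diet arrays too. Stx12, an endosomal syntaxin, differed by 0.88 and 0.66, and Churc1, a zinc finger protein, by 0.92 and 0.66. Txnip, an inhibitor of thioredoxin that responds to glucose, differed by 1.03 and 0.64, but the control diet arrays themselves were far apart, at 448 and 177 against 588 and at 286 and 114 against 289. At the second Txnip probe set the isocaloric value was thus level with control diet array 1.

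On the lower side 20 genes had only lower probe sets at that brightness, of which the 10 with the largest differences are named. Neurod1 and Atn1 are given above. Fgfr1, a receptor for fibroblast growth factors, measured 538 and 439 against 219 (-1.11 ± 0.32) and, at a second probe set, 404 and 480 against 236 (-0.87 ± 0.34). Rara, a retinoic acid receptor, measured 1125 and 700 against 449 (-0.97 ± 0.40) and 140 and 118 against 59.0 (-1.001 ± 0.29). Both genes were also under the control diet values on the fetal alcohol arrays, with 323 and 234 at the first Fgfr1 probe set and 379 and 635 at the first of Rara. Ucp2, a mitochondrial carrier that tracks fatty acid use, measured 479 and 633 against 319 (-0.77 ± 0.33) and 219 and 217 against 98.5 (-1.07 ± 0.33). Bok, a pro-apoptotic relative of Bcl2, measured 372 and 379 against 207 (-0.83 ± 0.29) and 138 and 165 against 74.2 (-0.93 ± 0.30). The fetal alcohol values of Bok, 368 and 306 at the first probe set and 161 and 126 at the second, stayed closer to control diet than to the isocaloric value. Atp1b2, the sodium pump subunit of astrocytes, had -1.11 and -0.79, and Acta2, smooth muscle actin of vessel walls, -1.02 and -1.07. Ppp1cb, a catalytic subunit of protein phosphatase 1, had -0.99 and -1.07, and Hspd1, the mitochondrial chaperonin, -0.84 and -0.79. In these last 2 genes the fetal alcohol arrays disagreed with each other, with 143 and 485 at the first Ppp1cb probe set and 241 and 545 at the brighter one of Hspd1.

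Gene lists were described with 1 probe set per gene, the brightest, over 3174 genes, of which 3.5% were called higher and 7.12% lower, with a median difference of 0.03. These shares over all genes are the background for the counts of each list below. Lists of genes that build and break down proteins had medians above that of all genes. Of 36 genes of the cytosolic ribosome, 28 had a positive difference, 4 were higher and none lower, and the median was 0.25. Rpl35a measured 789 and 875 against 1494 (0.84 ± 0.29), Rpl36 1772 and 2365 against 3149 (0.62 ± 0.28) and Rpl41 596 and 608 against 910 (0.59 ± 0.28). Rps3a measured 1480 and 833 against 1792 (0.69 ± 0.41), with control diet arrays 0.82 apart on the log2 scale. The most negative were Rps24 (-0.37), Rpl17 (-0.35) and Rplp0 (-0.35). Translation factors had a median of 0.16, with 13 of 16 positive, 1 higher and 1 lower. The higher one was Eif4e, which binds the mRNA cap (239 and 188 against 341). The lower one was Eef1a2, the elongation factor of mature neurons and muscle (1314 and 1356 against 594, -1.16 ± 0.35), which had 1189 and 683 with fetal alcohol.

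Of 28 proteasome and ubiquitin genes, 18 were positive, 3 were higher and 2 lower, with a median of 0.28. With the mean of all probe sets of a gene in place of the brightest, this median was 0.13. Psma6 of the core ring measured 356 and 309 against 625 (0.89 ± 0.33), Psmc5 of the cap 332 and 295 against 526 (0.73 ± 0.28), and Psmb3 392 and 690 against 844 (0.69 ± 0.37). The isocaloric value of Psmb3 lay near control diet array 2, and that of Psma6 near fetal alcohol array 2 (641). The lower ones were Psme1, of the activator induced by interferon (1875 and 1478 against 963), and Psmb2 of the core (762 and 648 against 458). The second probe sets hardly differed, with -0.12 for Psme1, -0.16 for Psmb2 and 0.05 for Psmb3.

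Lists of synaptic genes had medians below that of all genes. Of 36 synaptic vesicle and release genes, 25 had a negative difference, and the median was -0.25, or -0.16 with no filter on dim probe sets. Of the 36, 5 were lower (13.9%, against 7.12% of all genes) and 1 was higher (Stx12). With so few genes called, this count does not set the list apart from all genes. Beside Rab3a and Cplx1, Vamp2, the vesicle SNARE of transmitter release, measured 3168 and 2418 against 1536 (-0.85 ± 0.28) and Syt11, a synaptotagmin, 332 and 173 against 105 (-1.12 ± 0.52). Both control diet arrays were above the isocaloric array for Vamp2 by more than they differed from each other, and for Syt11 they differed from each other by 0.90. The fetal alcohol values were 1919 and 1463 for Vamp2 and 74.6 and 180 for Syt11. Syt3 was the fifth lower gene. Snap25 (-0.04) and Syt4 (-0.03) hardly differed, and Syt1 (0.33) and Amph (0.48) had positive values.

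Of 29 glutamate receptor and postsynaptic scaffold genes, 21 had a negative difference, with a median of -0.33, or -0.16 with the filter at the 60th percentile. Of the 29, 4 were lower (13.8%, against 7.12% of all genes) and 1 was higher. Beside Grin2d the lower ones were Shank1 (96.2 and 103 against 46.1, -0.96 ± 0.40) and Dlgap3 (85.0 and 68.1 against 37.4, -0.86 ± 0.31), scaffolds under the synaptic membrane, and Grid1, a delta-type receptor (50.2 and 46.5 against 20.2, -0.94 ± 0.29). These were dim probe sets. The AMPA receptor subunits Gria1 (-0.51), Gria2 (-0.40) and Gria4 (-0.37) were negative without passing the size rule. The NMDA receptor subunits Grin1 (0.17) and Grin2b (0.24) were positive, so the subunits of this receptor did not share the direction of Grin2d. The 1 higher gene was Grm4, a presynaptic metabotropic receptor (113 and 130 against 194, 0.64 ± 0.28), at 94.7 and 106 with fetal alcohol.

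GABA and glycine receptor genes other than Gabbr1 were not called, and the 12 tested had a median of -0.09. Potassium and HCN channel genes had a median of -0.13. Of these, 3 of 21 were lower, Kcnk1, Kcna6 and Kcnq3 (14.3%, against 7.12% of all genes). Of 15 sodium and calcium channel genes, 1 was lower, Cacnb3 (457 and 375 against 263); their median of 0.05 changed sign among alternatives (-0.08 to 0.11). In the list of protein kinase C, calcium and calmodulin signalling, 3 of 38 genes were lower and the median was -0.06, and it was 0.001 after scaling to equal medians. Plcb3, a phospholipase C, measured 160 and 145 against 58.5 (-1.24 ± 0.28), with 147 and 126 on the fetal alcohol arrays. Itpka, a kinase of inositol trisphosphate in dendritic spines, measured 136 and 110 against 62.1 (-0.87 ± 0.35), and Ncs1, a neuronal calcium sensor, 131 and 130 against 72.5 (-0.77 ± 0.33). With fetal alcohol Itpka had 194 and 115, the first above both control diet arrays, and Ncs1 58.9 and 97.8, below both.

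Among the transcription factors of excitatory neurons, Neurod2 measured 185 and 150 against 88.1 (-0.85 ± 0.30) and 83.8 and 110 with fetal alcohol. Calb1, calbindin of granule neurons, went the other way, with 104 and 93.0 against 174 (0.76 ± 0.39) and 104 and 205. The 8 excitatory neuron genes held 3 lower and 1 higher, with a median of -0.16. Of 39 growth cone, axon and microtubule genes, 25 were negative and 4 lower, with a median of -0.15, or -0.05 under quantile normalization. Ina, the intermediate filament internexin, measured 975 and 755 against 373 (-1.18 ± 0.29) and Dpysl3, a collapsin response mediator, 213 and 157 against 91.9 (-0.92 ± 0.38). Gap43, the growth cone protein, did not follow them, at 3029 and 2563 against 2699 (-0.05 ± 0.23). Map1a and Nefh were the other lower genes.

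**Figure D4:**
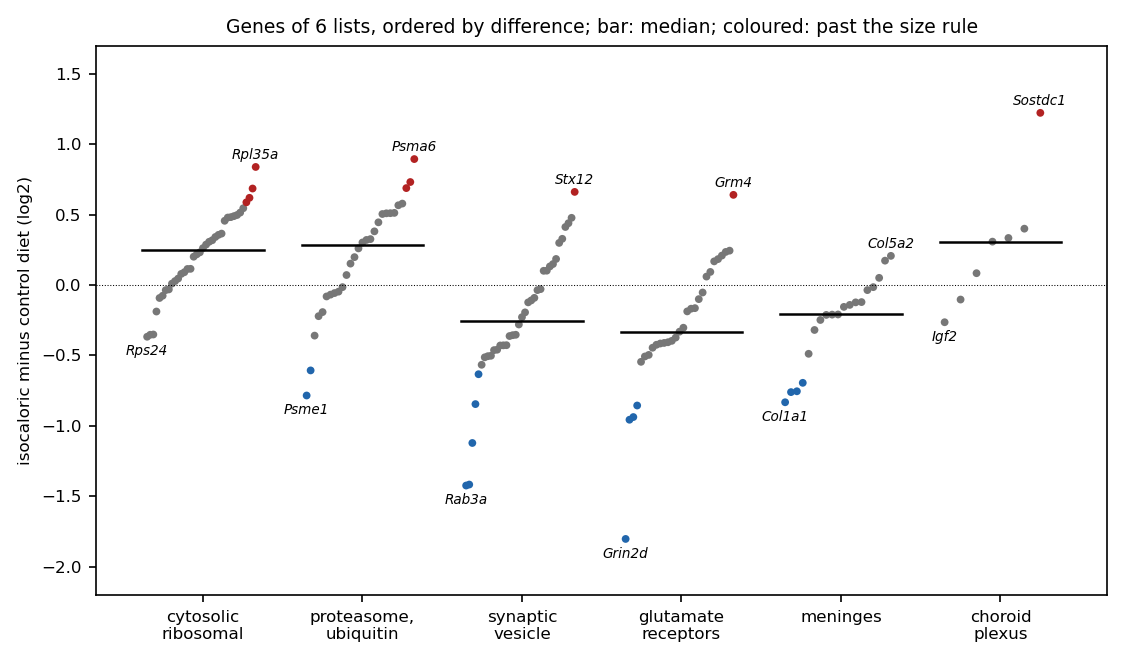
Difference between isocaloric and control diet (log2, vertical axis) for each tested gene of 6 lists, ordered within a list; the bar is the median and coloured points passed the size rule. The ribosomal (0.25), proteasome (0.28) and choroid plexus (0.31) medians lie above 0, and the synaptic vesicle (-0.25), glutamate receptor (-0.33) and meninges (-0.21) medians below it.

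The list of growth factors and their receptors had a median of -0.12, which was -0.02 with the filter at the 60th percentile. It held 4 lower genes of 30 (13.3%, against 7.12% of all genes) and none higher. Beside Fgfr1 these were Vegfb (95.7 and 73.2 against 30.0, -1.22 ± 0.32), Pdgfa (70.3 and 58.9 against 32.1, -0.81 ± 0.29) and Erbb2 (53.4 and 63.5 against 31.4, -0.72 ± 0.29). Bdnf, the neurotrophin of activity-dependent growth, measured 178 and 197 against 134 (-0.46 ± 0.28) and -0.02 at its other probe set, and its receptor Ntrk2 363 and 292 against 347 (0.09 ± 0.35). Fos, an immediate early gene, measured 114 and 133 against 51.5 (-1.10 ± 0.32) at the brighter probe set and 61.5 and 56.6 against 46.1 (-0.29) at the other. The 23 immediate early genes had a median of -0.10, and Klf4 was the other one called. Of 15 cell death genes, 4 were lower (26.7%, against 7.12% of all genes) and 1 higher. They lay on both the protective and the lethal side of the Bcl2 family. The anti-apoptotic Bcl2l1 measured 251 and 202 against 87.4 (-1.26 ± 0.30), with -0.45 and -0.58 at other probe sets, and Bcl2 64.2 and 48.0 against 21.6 (-1.04 ± 0.36). The pro-apoptotic Bok and Bcl2l11 (99.0 and 123 against 67.8) were lower and Bid (135 and 122 against 222) higher. The median of this list, -0.30, was 0.10 with the filter at the 60th percentile.

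Insulin and its related growth factors signal nutrient supply to tissues. Of 27 insulin and insulin-like growth factor genes, 3 were lower (11.1%, against 7.12% of all genes), none higher (3.5% of all genes), and the median was -0.12. With so few genes called, the list is not set apart from all genes by this count. Irs2, an adaptor of the insulin receptor, measured 119 and 94.6 against 49.5 (-0.96 ± 0.35) and 45.0 and 78.7 with fetal alcohol. Igf2r, which clears Igf2 from the cell surface, measured 209 and 185 against 108 (-0.81 ± 0.28), and Igf1r, the signalling receptor, 71.1 and 78.8 against 42.2 (-0.70 ± 0.28), with -0.34 at a second probe set. All 3 are surface receptors or their adaptor. The fetal alcohol values of Igf2r (167 and 177) and Igf1r (66.1 and 67.0) lay between the diets. The ligands and the carrier did not pass the rule at their brightest probe sets: Igf1 measured 85.4 and 61.9 against 74.1, Igf2 592 and 861 against 593, and Igfbp2 670 and 909 against 1033. The other probe sets of Igfbp2 gave 0.28 and -0.32. Insr, the insulin receptor, measured 49.1 and 65.0 against 43.3 (-0.32 ± 0.51).

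None of the feeding peptides passed the size rule. Cck, cholecystokinin, lay above both control diet arrays, at 538 and 617 against 788 (0.45 ± 0.27), and had 764 and 735 with fetal alcohol. Npy measured 384 and 465 against 397, Sst, somatostatin, 1107 and 1268 against 1205, and Crh, corticotropin-releasing hormone, 39.0 and 44.2 against 41.2, and each isocaloric value lay between the control diet values. A second Sst probe set was below both, at 500 and 570 against 384 (-0.46). Of the 24 genes of this list 3 receptors were lower and none higher, with a median of -0.06. Lepr, the leptin receptor, measured 46.9 and 55.6 against 17.3 (-1.15 ± 0.33), and 35.2 and 53.7 with fetal alcohol. The somatostatin receptors Sstr4 (97.6 and 95.5 against 56.3) and Sstr2 (174 and 196 against 118) were the others, and Sstr2 had 303 and 254 with fetal alcohol, above control diet.

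Of 25 fatty acid oxidation and ketone genes, 20 had a positive difference, none was higher and 1 was lower (Ucp2), with a median of 0.15. Cpt1a, which admits fatty acids to mitochondria, measured 276 and 206 against 300 (0.32 ± 0.34), and Acaa2, the last enzyme of beta-oxidation, had 0.55. The 18 genes of the tricarboxylic acid cycle and its shuttles had a median of 0.20 with 12 positive, and 1 lower gene, Gpd2 (98.9 and 117 against 50.2, -0.96 ± 0.32). Oxidative phosphorylation had 2 higher (Atp5if1 and Atp5po) and 3 lower genes of 40, with a median of 0.04. Cox8a of cytochrome oxidase measured 3218 and 2902 against 1611 (-0.92 ± 0.22), with -0.82, -0.38 and -0.26 at other probe sets, and 2620 and 2449 with fetal alcohol. Ndufs1 of complex I and Cox6a2 were the other lower ones.

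Glycolysis and glucose transport, with 27 genes and a median of -0.04 that changed sign without control diet array 1 (0.02), held 1 lower gene. This was Pfkl, a phosphofructokinase (352 and 369 against 186, -0.92 ± 0.38), at 362 and 196 with fetal alcohol. The glucose transporter Slc2a1 measured 312 and 554 against 560, level with control diet array 2, and the neuronal Slc2a3 187 and 191 against 133 (-0.47 ± 0.29). Hk1 measured 1172 and 994 against 950 (-0.18 ± 0.26). Sterol and fatty acid synthesis had a median of 0.01 over 22 genes (-0.12 with the mean of probe sets). In it Dhcr7 (345 and 414 against 201, -0.87 ± 0.29) and Lss (259 and 284 against 162, -0.71 ± 0.29), enzymes of cholesterol synthesis, were lower and Insig1, which restrains that synthesis when sterols are ample, higher (225 and 248 against 366, 0.61 ± 0.29). A second Dhcr7 probe set gave -0.70, the other Lss probe sets -0.26 and -0.27 and that of Insig1 0.24. Fetal alcohol values of Dhcr7, 480 and 432, were above both diets.

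Stress genes showed no common direction. The 14 corticosteroid response genes had a median of -0.02 (0.04 after scaling to equal medians) and 1 lower gene. This was Fkbp4, a cochaperone of steroid receptors (191 and 218 against 106, -0.88 ± 0.28), at 213 and 194 with fetal alcohol. Its other probe sets gave -0.404 and -0.415, short of the size rule. Sgk1, a kinase induced by glucocorticoid, measured 125 and 113 against 144 (0.26 ± 0.28), and Nr3c2, the mineralocorticoid receptor, 113 and 91.2 against 96.6. Glul, glutamine synthetase, measured 2227 and 1964 against 2222 at its brightest probe set. Other Glul probe sets lay above both control diet arrays without passing the size rule, by 0.17, 0.29 and 0.32 from their mean. Genes of amino acid shortage and the unfolded protein response had a median of -0.02 over 13 (0.04 after that scaling), with 1 higher. This was Hspa5, the chaperone BiP (286 and 436 against 620, 0.79 ± 0.34), with -0.03 at its second probe set and 451 and 596 with fetal alcohol. The antioxidant list had a median of 0.02 over 30 genes, with Hmox1 and Gstm5 higher and Sod2 lower (50.8 and 51.5 against 24.7), and the 25 chaperones a median of -0.03, which was 0.05 without control diet array 2.

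**Figure D5:**
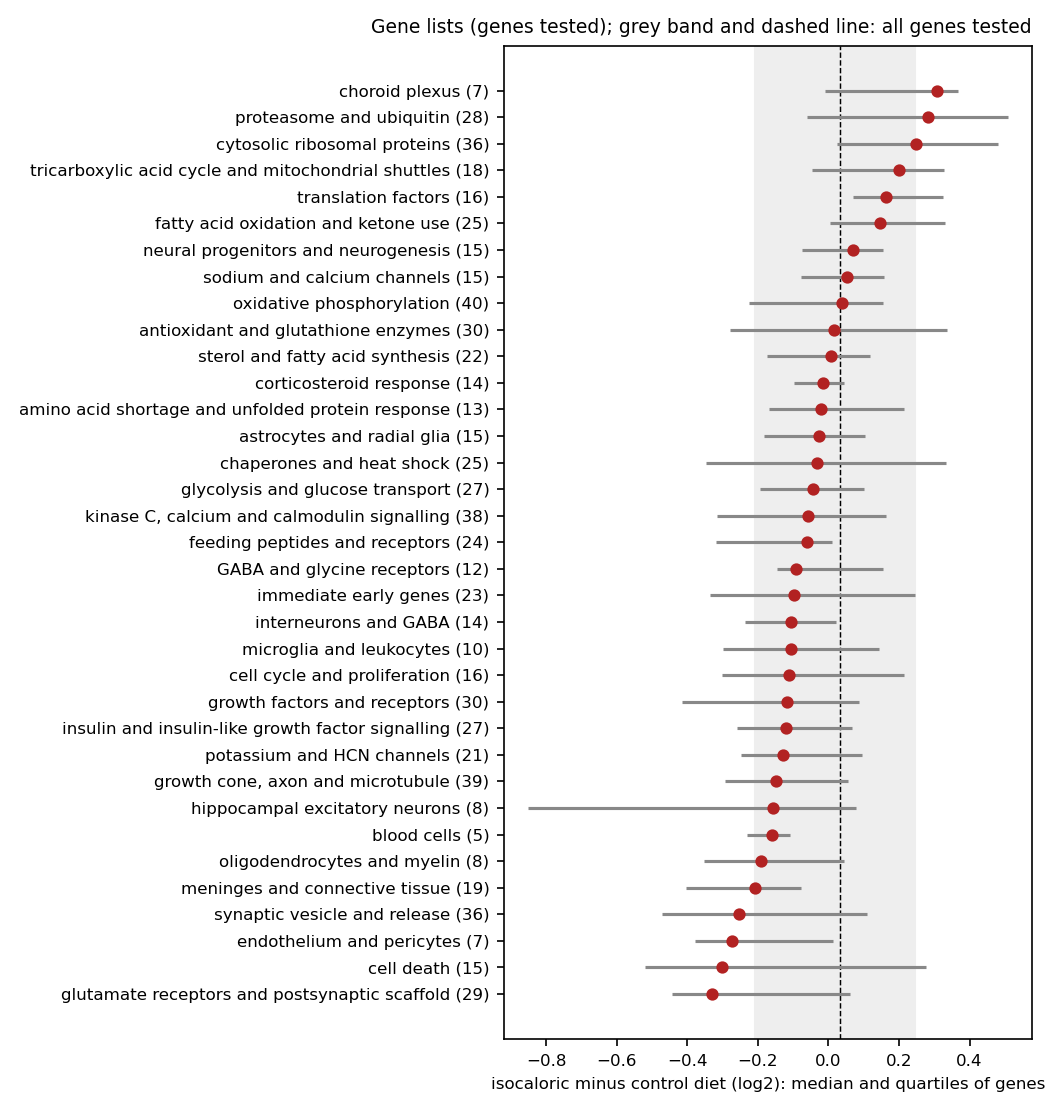
Median (red point) and quartiles (line) of isocaloric minus control diet (log2) for each gene list, with the number of genes tested; the dashed line and grey band are the median (0.03) and quartiles (-0.21 and 0.24) of all 3174 genes. The proteasome, ribosomal and choroid plexus lists have medians at or past the upper edge of the band, and the glutamate receptor, cell death, endothelium and synaptic vesicle lists past the lower edge.

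Of 10 genes of hippocampal excitatory neurons on the array, 8 passed the filter, with a summed intensity of 3718 and 3684 on control diet and 3471 on the isocaloric diet. Astrocyte and radial glia genes had a median of -0.03 over 15 genes (0.06 under quantile normalization), progenitor genes 0.07 over 15 (-0.04 without control diet array 1), and interneuron genes -0.11 over 14. Hes5, an effector of Notch in progenitors, measured 114 and 220 against 78.9, and Nnat, neuronatin, 5895 and 5211 against 3548; both were lower. Oligodendrocyte genes had a median of -0.19 over 8 genes, and Mbp was dim on every array (23.0 and 42.7 against 30.7, 44.7 and 34.6 with fetal alcohol). Fewer cells of a type and less RNA per cell cannot be told apart in these samples.

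Of 7 choroid plexus genes, 5 had a positive difference with a median of 0.31 (0.12 with the mean of probe sets), and 1 was higher, Sostdc1. Summed over the list, the intensity was 6955 and 7117 with control diet, 7702 with the isocaloric diet and 2615 and 1168 with fetal alcohol. Most of this sum with either diet, and most of its fall with fetal alcohol, came from Ttr alone. Ttr, transthyretin, the main product of choroid plexus, did not differ beyond the spread of the control diet arrays, at 5297 and 4886 against 5391 (0.08 ± 1.13), with -0.06 at a second probe set. With fetal alcohol the first measured 1004 and 69.2, and its large SE comes from that pair. Aqp1 (0.33) and Enpp2 (0.31) were positive. Of 19 genes of meninges and connective tissue, 16 were negative and 4 lower (21.1%, against 7.12% of all genes). Their summed intensity was 8947 and 10420 against 6517, and Sparc and Ptgds made up the larger part of each sum. The median of the list was -0.21. Without control diet array 1 this median was -0.37, and without array 2 it was -0.05. Col1a1, fibrillar collagen, measured 886 and 1307 against 600 (-0.83 ± 0.43), Col3a1 290 and 408 against 199 (-0.76 ± 0.66), Sparc, a collagen-binding protein, 3323 and 2119 against 1569 (-0.75 ± 0.31) and Ptgds, prostaglandin D synthase, 2230 and 3542 against 1734 (-0.69 ± 0.57). In each the isocaloric array was below both control diet arrays, but these differed from each other by 0.48 to 0.67 on the log2 scale. Other Sparc probe sets gave -0.97, -0.79 and -0.11.

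Hemoglobin and other blood cell genes had a median of -0.16 over 5 genes and none was called; their sum was 6886 and 7774 against 6719. Vessel genes had a median of -0.27 over 7, which was -0.60 with the filter at the 60th percentile and -0.11 with no filter, and Acta2 was lower (297 and 263 against 127). Microglia and leukocyte genes had a median of -0.11 over 10, which ran from -0.34 without control diet array 1 to 0.17 without array 2, and C1qb, a complement subunit, was the lower one (162 and 354 against 147), with 0.05 at its second probe set. The part of meninges, choroid plexus and vessel RNA in the other differences was not tested.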

How the data were processed

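The values are intensities on a linear scale, 1 for each probe set of an array, as the authors deposited them. Software and scaling: not given in the sources used here. After 2% trimming, the means of the deposited intensity columns lay between 150.19 and 150.22, so they were used as deposited. The 59 control probe sets were left out. Intensities of the other 8740 were taken to log2(intensity + 10.6), with the 20th percentile as offset, so differences of dim probe sets are understated, and probe sets under the 40th percentile of the mean over 5 arrays were not tested, which left 5244. Detection calls were not used here, and the number of arrays limits the precision. Gene names came from the platform annotation, updated through the gene identifier for 6985 probe sets; 7006 had 1 symbol, 308 several and 1426 none, and only the first kind were named.

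All 5 arrays were fitted in limma 3.58.1 (R 4.3.3, lmFit, eBayes with an intensity trend, 2-sided, Benjamini-Hochberg over all tested), with 2 residual degrees of freedom. The fit was also run on simulated data. There the isocaloric array was given the same spread as the others, so the simulation could not check that assumption. Genes were named by these rules. With a brighter mean of at least 100, up to 15 genes on each side were taken by the gap to the nearer control diet array, and up to 10 whose tested probe sets, at least 2, were all called (the minimum was applied to each of these probe sets; without it 10 genes were all higher and 25 all lower). Up to 4 called genes of each described list and a list of genes of prior interest were added; among the latter Gapdh, Hmgcs1, Fkbp5 and Mt1 could not be named from a probe set of 1 symbol. Some genes are not reported here. Fewer examples of a list are given where values would repeat. Uncalled genes of a list that are named beside them were chosen after their values were seen. Members and lists were chosen with earlier results of these data known. Alternatives changed the normalization, offset, filter, size rule, arrays, variance trend and the probe set that stands for a gene.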

Additional observations from a re-analysis of the deposited data

How the results depend on the processing

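The count of higher probe sets, 211, was 112 with the offset at the 40th percentile, 139 with the filter at the 60th percentile, 365 of 8740 without a filter and 23 at a 2-fold rule. The count of lower ones, 440, was 96 at a 2-fold rule. Without control diet array 1, 291 were higher and 510 lower, and without array 2, 334 and 499, by a rule that then needs the isocaloric value beyond 1 array only. The limma count of 0 became 13 with the control diet and isocaloric arrays alone, in fits whose spread comes from the control diet pair; leaving out 1 array gave 0 to 13 (11 and 13 without a fetal alcohol array). It was 0 under the other alternatives. Of 35 list medians, 24 kept their sign under all alternatives run. Those that changed sign include the microglia, astrocyte, progenitor, glycolysis and cell death lists. Further medians that kept their sign but moved by over 1.5 times ran from -0.15 to -0.06 for insulin signalling, -0.10 to -0.01 for feeding peptides and receptors, -0.24 to -0.06 for potassium channels, -0.12 to -0.03 for GABA and glycine receptors, -0.19 to -0.04 for interneurons, -0.21 to -0.10 for excitatory neurons, -0.16 to -0.02 for immediate early genes, -0.21 to -0.09 for blood cells (both ends from leaving out a control diet array), 0.01 to 0.10 for oxidative phosphorylation and 0.01 to 0.13 for antioxidant genes. No paired analysis was possible because the isocaloric group has 1 array, whose label carries no replicate number. The number of arrays limits all of these values, and a second isocaloric array would be needed to measure the spread of that diet.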
